A study of Saccharomyces cerevisiae with 12 samples.

Results

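The 30 genes described here encode the enzymes of glycolysis and of alcoholic fermentation in budding yeast, Saccharomyces cerevisiae, together with the first steps of the glycerol branch and of acetate formation. They were taken by ORF name from the deposited table. Hexose phosphorylation was covered by HXK1 (YFR053C), HXK2 (YGL253W) and GLK1 (YCL040W), and upper glycolysis by PGI1 (YBR196C), PFK1 (YGR240C), PFK2 (YMR205C) and FBA1 (YKL060C). The triose phosphate steps to pyruvate were covered by TPI1 (YDR050C), TDH1 (YJL052W), TDH2 (YJR009C), TDH3 (YGR192C), PGK1 (YCR012W), GPM1 (YKL152C), ENO1 (YGR254W), ENO2 (YHR174W), CDC19 (YAL038W) and PYK2 (YOR347C). Fermentation was covered by the pyruvate decarboxylase genes PDC1 (YLR044C), PDC5 (YLR134W) and PDC6 (YGR087C) and the alcohol dehydrogenase genes ADH1 (YOL086C), ADH2 (YMR303C), ADH3 (YMR083W), ADH4 (YGL256W) and ADH5 (YBR145W). GPD1 (YDL022W), GPD2 (YOL059W) and GPP2 (YER062C) stand for the glycerol branch, and ALD4 (YOR374W) and ALD6 (YPL061W) for acetate. All 30 of 6174 ORFs were found in the table, and 28 had a value on both arrays of at least 1 comparison. ADH2, the glucose-repressed alcohol dehydrogenase that consumes ethanol, and ALD6, the cytosolic acetaldehyde dehydrogenase, had a value on only 1 array, at 0.20 and 0.21 (log2) on the second array of the HCM1 deletion, and take no further part.

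Glycolysis turns glucose into pyruvate, and yeast growing on glucose sends most of that pyruvate through pyruvate decarboxylase and alcohol dehydrogenase to ethanol. The main isoenzymes are among the most abundant proteins and mRNAs of the cell, and are driven by the activators Gcr1 and Rap1. A second set of isoenzymes, such as Hxk1, Glk1, Pyk2 and Adh2, is held down by glucose repression and appears when glucose runs low. Hcm1 is a forkhead transcription factor of S phase that is best known for chromosome segregation genes.

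Each of 6 comparisons was hybridised to 2 2-colour arrays with the dyes swapped (Exp 1 and Exp 2), 12 arrays in all, and every value below is a log2 ratio. The wild type was CML128, a MATa strain with auxotrophic mutations in URA3, HIS4, LEU2 and TRP1, and all other strains derive from it. MJRC05 lacks HCM1 (hcm1::natMX4), GRB2405 carries HCM1-3HA::natMX4 and is called the tagged strain, and MJRC07 carries tetO7-HCM1-3HA::kanMX4 in GRB2405 and is called the tet strain. Doxycycline represses the tet promoter, and without it the strain overexpresses HCM1. The 6 comparisons were the deletion over wild type, the tet strain over the tagged strain, the tet strain without over with 10 h of doxycycline, the tagged strain over wild type, and the tagged strain with 4 h or with 10 h of doxycycline over none. All cells grew in the rich medium YPD at 30 °C. In each comparison the first-named strain carried Cy5 on Exp 1 and Cy3 on Exp 2. A dye swap of each RNA sample is given in the series text, so a pair of arrays was counted as 1 RNA pair, and each SD covers only those 2 arrays and may be technical. The last 3 comparisons served as controls. The tet strain, the tagged strain and the wild type each enter more than 1 comparison, so the comparisons are not independent. Each mutant is a single named strain, and its number of clones is not given in the sources used here. In bulk RNA, fewer cells with a transcript and less of it per cell cannot be told apart.

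Arrays held between 2520 and 6174 values. HCM1 itself was at -3.55 and -3.18 on the deletion arrays, at 5.31 and 5.02 for the tet over the own promoter, and at 5.79 and 5.51 when that strain without doxycycline was set over itself with the drug, so the labels of these comparisons held. Within the tagged strain HCM1 was at 1.37 and 0.68 after 10 h of doxycycline. For the tagged strain over wild type the deposited columns mirror each other (Pearson r = -0.999 over 3262 ORFs), so that comparison rests on 1 array, its direction is not settled, and the values below follow the label of the first column. Of 7 a-cell marker genes, 5 were measured in the deletion, between -0.81 and 0.13, and of 4 alpha-cell markers 2 were, but ratios give no level, so the mating type could not be checked. None of the 30 genes lies on chromosome IX (0 of 30).

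A feature of the deletion arrays bears on most of the abundant enzymes. FBA1 (aldolase), TDH1, TDH2 and TDH3 (glyceraldehyde-3-phosphate dehydrogenase), PGK1 (phosphoglycerate kinase), ENO1 and ENO2 (enolase), CDC19 (pyruvate kinase), PDC1 (the main pyruvate decarboxylase) and ADH1 (the main ethanol-forming dehydrogenase) all had the same value on both arrays. These 10 genes lay between -0.234 and -0.229 on Exp 1 and between 0.0028 and 0.0042 on Exp 2. Each had 20 to 24 other ORFs within 0.005 of it on both arrays, where the median ORF of 5161 had 0 and the 99th percentile was 3. In all, 24 ORFs formed this cluster, among them the translation factor genes TEF1, TEF2, EFT1 and EFT2, RPP0, CCW12 and ORFs without a standard name such as YAR010C. In the tagged strain over wild type, 8 of the same 10 genes again shared a value to within 0.01, between -0.592 and -0.585, with PDC1 at -0.475 and ADH1 at -0.295. In the 4 other comparisons these 10 genes covered wider ranges. For the tet over the own promoter they ran from -0.0423 to 0.255 on Exp 1 and from -1.22 to -0.508 on Exp 2. Some still lay together: TDH2 and PDC1 were both at 0.217 and TDH3 at 0.216 on that Exp 1. In the tet strain without over with doxycycline, ENO1 and TDH3 were both at -0.227 and TDH2 at -0.229 on Exp 2. Genes that share 1 ratio cannot be ranked, and whether their spots had reached the upper limit of the scanner was not tested, because intensities were not used here.

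**Figure D1:**
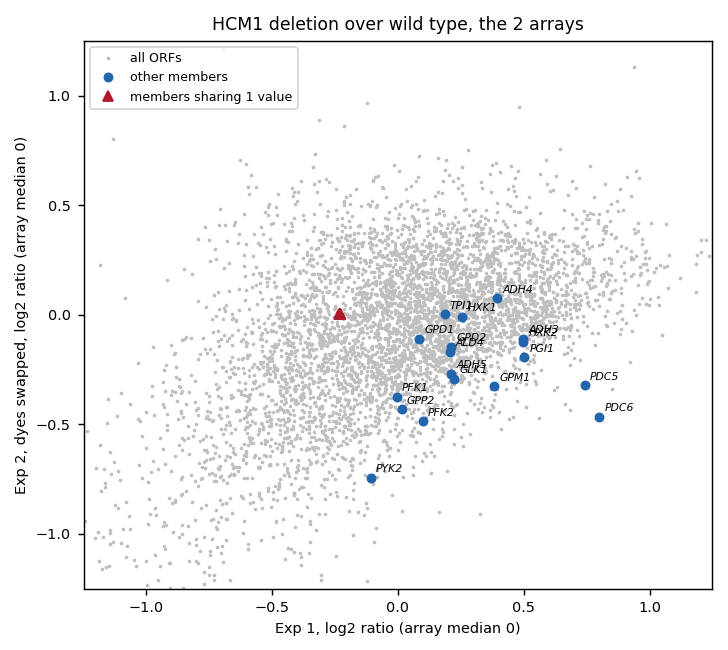
Log2 ratio of HCM1 deletion over wild type on Exp 1 (horizontal axis) against Exp 2 (vertical axis), each array with its median set to 0. Grey points are all ORFs in the range drawn, blue circles 18 members and red triangles the 10 members that share 1 value, which fall on a single spot near -0.23 and 0.00.

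A second feature marked the dye-swapped pairs other than the deletion: the enzymes' ratios were higher on Exp 1 than on Exp 2. In the tet over the own promoter this held for 28 of 28 genes, with a median gap of 0.48 against 0.01 over all ORFs, of which 51.6% were higher on Exp 1. It held for 28 of 28 in the tet strain without over with doxycycline (median gap 0.43, all ORFs 0.02), for 21 of 22 after 4 h (0.58, all ORFs -0.02) and for 23 of 25 after 10 h of doxycycline (0.65, all ORFs 0.12). In the deletion it held for 18 of 28, near the 59.7% of all ORFs (median gap 0.34, all ORFs 0.11). The 10 exceptions were the genes with the shared value. PDC5, a second pyruvate decarboxylase gene, had the widest mean gap at 0.88, while HXK1 (0.14), GPD1 (0.11) and ADH4 (0.04) had the narrowest. The sign of many of these genes therefore differs between Exp 1 and Exp 2, and the mean of a pair is the value to read.

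**Figure D2:**
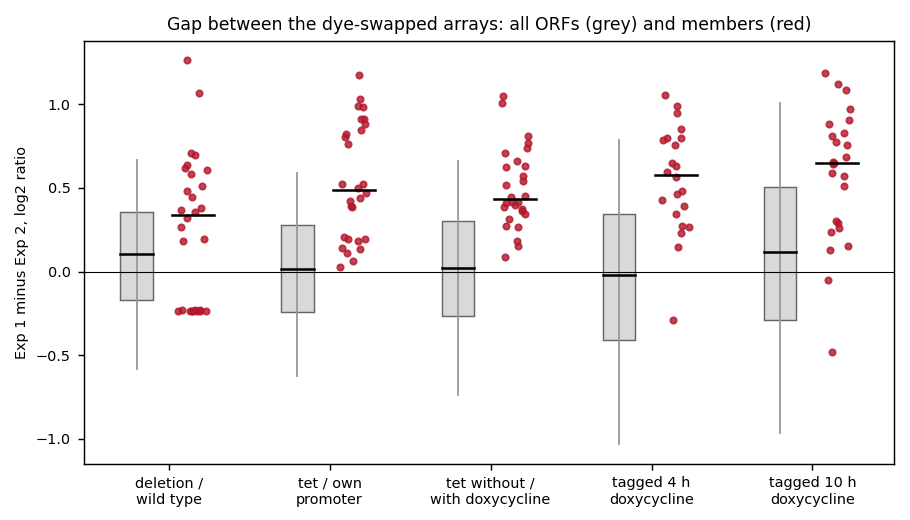
Difference in log2 ratio, Exp 1 minus Exp 2, for the 5 dye-swapped comparisons. Grey boxes give the quartiles and median over all ORFs, with thin lines from percentile 5 to percentile 95, red points the members and black lines their medians, which lie between 0.34 and 0.65.

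The first question was what loss of HCM1 did to these enzymes, and no enzyme gene passed the main test. Below, passing a test means limma on the means of array pairs unless the replicate block is named. The fit with the replicate block counts the 2 arrays of 1 RNA pair as independent. The share of all ORFs that passed that fit is not given here, so its gene counts have no background to be read against. The 10 h control ratio enters the residual of the main test for the comparisons that altered HCM1. In the deletion HCM1 itself, at -3.36, did not pass, so not passing is no sign that a gene was unchanged. Over the own promoter HCM1 did not pass at 5.17 (limma, Benjamini-Hochberg adjusted p = 0.0560). Without over with doxycycline it passed, at 5.65 (limma, Benjamini-Hochberg adjusted p = 0.0445). In the deletion 17 of 28 measured genes were lower and 11 higher, between -0.43 (PYK2) and 0.23 (ADH4). Their median was -0.07 against -0.01 over all ORFs, of which 50.9% were lower. The 10 genes with the shared value stood at -0.11 and count among the lower ones. Without them 7 of 18 were lower and the median was 0.03. On both arrays together only PFK1 and PYK2 were lower (2 of 28, against 35.8% of all ORFs). Only ADH4 and TPI1 were higher on both (2 of 28, against 29.1%). PFK1 on Exp 1 (-0.0057) and TPI1 on Exp 2 (0.0028) lay close to 0, so these 2 genes have no clear direction. None of 25 genes tested passed (limma, Benjamini-Hochberg adjusted p of 1.00 for each), and the same test called 0% of 2538 ORFs. An unadjusted p below 0.05 (limma) was seen for 0 of the 25, against 26 of the 2538 ORFs. With each array as a replicate and Exp as a replicate block, PYK2 passed, at -0.43. No gene reached 2-fold on both arrays, as 1.53% of 5161 ORFs did.

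With HCM1 under the tet promoter, most of the enzymes stood below the tagged strain with its own promoter. Of 28 measured genes 25 were lower and 3 higher, with a median of -0.28 against -0.01 over all ORFs, of which 51.6% were lower. Exp 1 put the median at 0.00 and Exp 2 at -0.63. Lower on both arrays were 14 of 28 genes (against 33.8% of all ORFs), and higher on both were HXK1, ADH4 and GPP2 (3 of 28, against 32.4%). None of 25 tested genes passed (limma, Benjamini-Hochberg adjusted p of 1.00), and 0% of 2435 ORFs were called. An unadjusted p below 0.05 (limma) was seen for 0 of the 25, against 113 of the 2435 ORFs, too small a share for the 0 to set these genes apart. With each array as a replicate and the replicate block, 8 genes passed: HXK2, PGI1, PFK1, PFK2, GPM1, GPD1 and GPD2 lower, and HXK1 higher. That count has no share of all ORFs beside it, and the fit takes the 2 arrays as independent. No gene reached 2-fold on both arrays, against 1.69% of 3955 ORFs, and on Exp 2 alone ENO1 and ENO2 did.

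Without over with 10 h of doxycycline, the tet strain had 16 of 28 genes lower and 12 higher, with a median of -0.14 against -0.00 over all ORFs, of which 50.1% were lower. The medians of the 2 arrays were 0.14 and -0.33. HXK1 alone passed 2-fold on both arrays, which 5.36% of 4307 ORFs did. None of 25 tested genes passed limma, where 0.0403% of 2480 ORFs did. HXK1 was the only tested gene of the 25 with an unadjusted p below 0.05, against 233 of the 2480 ORFs. With each array as a replicate and the replicate block, 12 genes passed: HXK1, GLK1, ADH4 and GPP2 higher, and HXK2, PGI1, PFK1, PFK2, GPM1, PDC5, GPD1 and GPD2 lower. GPD1 passed there at an unadjusted p of 0.0143 (limma with the replicate block, Benjamini-Hochberg adjusted p = 0.0337). An adjusted p that near the unadjusted one arises only where a large share of all ORFs passes. The count of 12 is therefore no result about these genes.

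**Figure D3:**
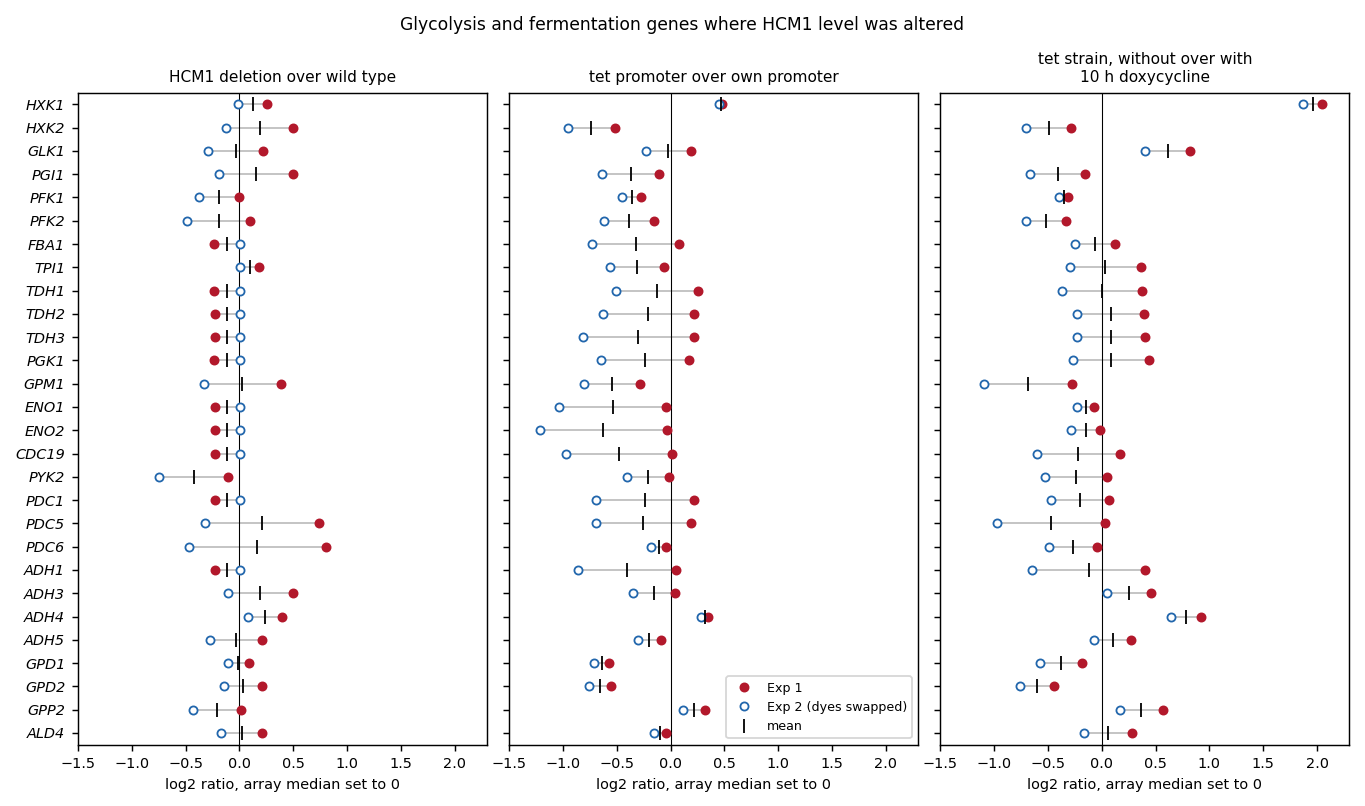
Log2 ratio of 28 genes in the 3 comparisons that altered HCM1, with each array's median set to 0. Red points are Exp 1, open blue points Exp 2 and black ticks their mean. HXK1 stands apart at 1.96 in the right panel, and the 10 genes with a shared value line up at -0.23 and 0.00 in the left one.

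The hexokinases differed from one another. HXK2 encodes the main hexokinase of glucose-grown cells, and HXK1 and GLK1 (glucokinase) encode isoenzymes that glucose represses. HXK1 was at 2.05 and 1.87 in the tet strain without over with doxycycline, a mean of 1.96 ± 0.13 (SD, n = 2 arrays), or 3.88-fold. Both arrays were high, but the gene did not pass (limma, Benjamini-Hochberg adjusted p = 0.231). GLK1 was at 0.82 and 0.41 there, and HXK2 at -0.28 and -0.70. Over the own promoter HXK1 stood at 0.48 and 0.45, GLK1 at 0.19 and -0.23, and HXK2 at -0.52 and -0.96. In both tet comparisons HXK1 was thus above 0 and HXK2 below 0 on every array. The difference HXK1 minus HXK2 was 0.99 and 1.41 over the own promoter and 2.33 and 2.57 without over with doxycycline. The difference GLK1 minus HXK2 was 0.71 and 0.73 in the first and 1.11 on each array of the second, so the offset between Exp 1 and Exp 2 was common to these genes. In the deletion HXK1 minus HXK2 was -0.24 and 0.11, with no common direction.

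In the tagged strain the ratio is with the drug over none, the reverse of the order in the tet strain. After 10 h HXK1 was at -1.003 and -0.950 and GLK1 at -0.96 and -1.61, while HXK2 was at 1.46 and 0.95. None of the 3 passed (limma, Benjamini-Hochberg adjusted p = 0.148 for HXK1, 0.0507 for GLK1 and 0.102 for HXK2). After 4 h HXK2 was already at 1.34 and 0.86, a mean of 1.10 ± 0.34, while HXK1 was at 0.61 and 0.34. GLK1 had 1 value, 0.70. HXK2 was thus high at both times, and HXK1 was above 0 at 4 h and below 0 at 10 h on every array.

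Because the tet strain was compared with its own culture under doxycycline, the drug differs between its samples as well as HCM1. Written as 10 h of doxycycline over none, HXK1 was at -1.96 ± 0.13 in the tet strain and -0.98 ± 0.04 in the tagged strain, and HXK2 at 0.49 ± 0.29 and 1.20 ± 0.36. Both genes kept their direction in both strains. Adding the tagged strain's ratio to that of the tet strain, which removes an effect of the drug common to both, left HXK1 at 0.98 ± 0.13 and turned HXK2 from -0.49 to 0.71 ± 0.47 and GLK1 from 0.61 to -0.67 ± 0.55. Over the 25 genes with values in both, 20 sums were below 0 and the median was -0.29, against 998 of 2207 sums below 0 and a median of 0.10 over all ORFs.

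**Figure D4:**
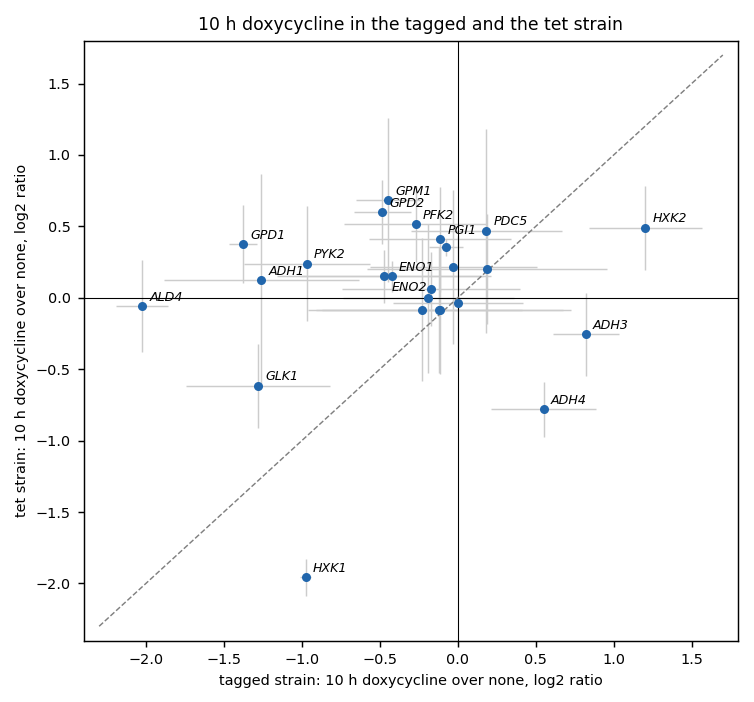
Log2 ratio of 10 h of doxycycline over none in the tagged strain (horizontal axis) and in the tet strain (vertical axis, sign turned from the deposited ratio) for 25 genes. Bars are the SD over 2 arrays and the dashed line marks equal values. HXK1 and HXK2 lie on the same side of 0 in both strains, while GPD1 stands at -1.38 in one and 0.38 in the other.

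In upper glycolysis, PGI1 encodes glucose-6-phosphate isomerase, and PFK1 and PFK2 the 2 subunits of phosphofructokinase. Over the own promoter PGI1 was at -0.11 and -0.63, PFK1 at -0.27 and -0.45 and PFK2 at -0.15 and -0.62, all below 0 on both arrays. The same held without over with doxycycline, where PGI1 was at -0.15 and -0.67, PFK1 at -0.31 and -0.40 and PFK2 at -0.33 and -0.70. In the deletion only PFK1 was below 0 on both arrays, at -0.01 and -0.37. The subunit genes kept close: over 11 arrays they differed by a median of 0.12 and by at most 0.49. After 10 h with the drug in the tagged strain PFK1 was at 0.00 and -0.15 and PGI1 at 0.21 and -0.43, with no common direction.

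From aldolase to pyruvate kinase the genes with the shared value in the deletion covered wider ranges in the other comparisons, apart from the tagged strain over wild type. Over the own promoter ENO2 was at -0.04 and -1.22, ENO1 at -0.04 and -1.03 and CDC19 at 0.02 and -0.97. TDH3 was at 0.22 and -0.82, PGK1 at 0.17 and -0.65, FBA1 at 0.08 and -0.73, and TDH1, which encodes the stress-induced isoenzyme, at 0.25 and -0.51. Apart from ENO1 and ENO2, these genes were above 0 on Exp 1 and below 0 on Exp 2, so no direction is given for them. GPM1 (phosphoglycerate mutase) and TPI1 (triose phosphate isomerase), whose ratios were not shared in the deletion, were below 0 on both arrays, GPM1 at -0.28 and -0.81 and TPI1 at -0.06 and -0.56. GPM1 was also low without over with doxycycline, at -0.28 and -1.09, where TPI1 was at 0.37 and -0.30.

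The near-identical isoenzymes of this stretch gave near-identical ratios. TDH2 and TDH3 differed by a median of 0.01 and at most 0.19 over 11 arrays, and ENO1 and ENO2 by a median of 0.03 and at most 0.18. TDH1 and TDH3 differed by up to 0.44. The 11 arrays include both deletion arrays and the tagged array, where these genes shared 1 value with genes of other enzymes. Closeness on those arrays is therefore not particular to isoenzymes. Probes for near-identical isoenzymes may bind each other's transcripts, and the probe sequences were not used here, so these genes are reported as uncertain individually. PYK2, the glucose-repressed pyruvate kinase gene, was set against CDC19, the main one: it was the lowest of the 28 genes in the deletion, at -0.11 and -0.74. After 10 h with the drug in the tagged strain PYK2 was at -0.68 and -1.26 and CDC19 at 0.35 and -0.41, a difference of -1.03 and -0.85. PYK2 did not pass (limma, Benjamini-Hochberg adjusted p = 0.123).

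Among the pyruvate decarboxylase genes, PDC5 and PDC6 were above 0 on Exp 1 and below 0 on Exp 2 of the deletion, at 0.74 and -0.32 and at 0.80 and -0.47. PDC1 was at 0.22 and -0.70 over the own promoter and PDC5 at 0.19 and -0.69, a difference between them of at most 0.03 on these arrays. PDC6, a further, weakly used gene, was at -0.04 and -0.18. Without over with doxycycline PDC5 was at 0.03 and -0.97. In the tagged strain after 4 h with the drug PDC5 was at 1.39 and 0.64, a mean of 1.01 ± 0.54 (limma, Benjamini-Hochberg adjusted p = 0.989), and PDC1 at 1.18 and 0.12. After 10 h PDC5 was at 0.53 and -0.16 and PDC1 at 0.73 and -0.35, so neither had a common direction then.

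Alcohol dehydrogenase genes differed from one another. ADH1 was at 0.05 and -0.86 over the own promoter and 0.40 and -0.65 without over with doxycycline. In the tagged strain it was at -0.05 and -1.04 after 4 h and at -0.82 and -1.70 after 10 h of doxycycline, a mean of -1.26 ± 0.63 at the later time (limma, Benjamini-Hochberg adjusted p = 0.0586). ADH3, which encodes the mitochondrial enzyme, stood on the other side, at 1.00 and 0.61 after 4 h and at 0.97 and 0.67 after 10 h. The difference ADH3 minus ADH1 was 1.06 and 1.65 at 4 h and 1.79 and 2.37 at 10 h. ADH4, which encodes an enzyme of another protein family that is induced by lack of zinc, was above 0 on both arrays of all 3 comparisons that altered HCM1, at 0.39 and 0.07, 0.35 and 0.29, and 0.92 and 0.65. It did not pass in any of them on the means of array pairs (limma, Benjamini-Hochberg adjusted p = 0.637 in the last). After 10 h in the tagged strain ADH4 was at 0.31 and 0.79. ADH5, a minor gene, was at -0.09 and -0.30 over the own promoter.

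The glycerol branch draws carbon off glycolysis at dihydroxyacetone phosphate and reoxidises NADH. GPD1, the glycerol-3-phosphate dehydrogenase gene induced by osmotic stress, was at -0.57 and -0.71 over the own promoter, and GPD2, the gene induced without oxygen, at -0.56 and -0.76. They differed by no more than 0.05 on these arrays, and both were low on each. Without over with doxycycline GPD1 was at -0.18 and -0.57 and GPD2 at -0.44 and -0.76, again below 0 on each array. GPP2, the glycerol-3-phosphatase gene of osmotic stress, was above 0 in both, at 0.32 and 0.12 and then at 0.57 and 0.17. In the deletion GPD1 (0.08 and -0.11) and GPD2 (0.21 and -0.15) had no common direction. On the means of array pairs GPD1 and GPD2 did not pass in these comparisons, and GPP2 could not be tested. With the replicate block GPD1 and GPD2 passed in both tet comparisons and GPP2 without over with doxycycline. That fit takes both arrays of a pair as independent, and the share of all ORFs passing it is not given. These passes therefore have no background and are no result about the glycerol genes.

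After 10 h with the drug in the tagged strain, GPD1 fell. GPD1 was at -1.31 and -1.44, a mean of -1.38 ± 0.09, or 2.60-fold lower (limma, Benjamini-Hochberg adjusted p = 0.0307, between 0.00959 and 0.0757 over 7 other settings). The call was lost with uncentred values and without the tagged array in the residual. GPD2 was at -0.35 and -0.61 (limma, Benjamini-Hochberg adjusted p = 0.535), and GPD1 minus GPD2 was -0.96 and -0.83. After 4 h GPD1 was at 0.04 and 0.33, above 0 on both arrays. In the tet strain, as 10 h of doxycycline over none, GPD1 was at 0.38 ± 0.27, on the other side of 0. That difference between the strains was not tested.

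ALD4, the glucose-repressed mitochondrial aldehyde dehydrogenase gene, also fell. It was at -1.91 and -2.14 after 10 h with the drug in the tagged strain, a mean of -2.02 ± 0.17, or 4.07-fold lower (limma, Benjamini-Hochberg adjusted p = 0.00331, between 1.79e-05 and 0.175 over 7 other settings). It was the lowest of the enzymes there. The call was lost with the mirrored columns of the tagged strain averaged. ALD4 had no value on the tagged array, so the only control ratio behind this test was that after 4 h, taken to have no true change. After 4 h ALD4 was at -0.39 and -0.95, also below 0 on both arrays. It was at -0.06 ± 0.32 in the tet strain after 10 h of doxycycline over none, at -0.04 and -0.15 over the own promoter and at 0.21 and -0.17 in the deletion.

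After 10 h with the drug in the tagged strain, 19 of 25 genes were lower, with a median of -0.19 against 0.01 over all ORFs, of which 49.0% were lower. GPD1 and ALD4 were 2 of 25 that passed limma, a share near the 6.37% of 2246 ORFs that did, and also the 2 that passed 2-fold on both arrays, as 9.47% of 2312 ORFs did. An unadjusted p below 0.05 (limma) was seen for 7 of 25 genes, against 484 of 2246 ORFs. With each array as a replicate and the replicate block 11 passed, HXK1, GLK1, PYK2, ADH1, GPM1, GPD1, GPD2 and ALD4 lower and HXK2, ADH3 and ADH4 higher. The share of all ORFs passing that fit is not given, and it takes the 2 arrays as independent, so the 11 have no background. Lower on both arrays were 9 of 25 genes, against 35.8% of all ORFs.

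After 4 h, 13 of 22 genes were higher and 9 lower, with a median of 0.10 against 0.04 over all ORFs, of which 46.7% were lower. None of 22 passed limma, as 0% of 2307 ORFs did. PDC5 alone had an unadjusted p below 0.05, against 53 of the 2307 ORFs. None of the 22 reached 2-fold on both arrays, which 2.85% of 2495 ORFs did. As the mean of the arrays HXK2 and PDC5 reached it. With each array as a replicate and the replicate block 6 passed, HXK1, HXK2, PDC1, PDC5 and ADH3 higher and ALD4 lower. Here too the fit takes the 2 arrays as independent, and the share of all ORFs passing it is not given.

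In the tagged strain over wild type, on its 1 array, 21 of 27 genes had a ratio below 0 as the first column is labelled, with a median of -0.30, against 49.9% and a median of 0 over all ORFs. With the sign turned, the same 21 genes would be the higher ones and the median would be as far above 0. The 10 genes that shared a value in the deletion are among the 21. GPM1 (0.76) and TPI1 (0.50) had the opposite sign to them. None of 24 passed limma, as 0% of 2257 ORFs did, and none reached 2-fold, which 0.332% of 3317 ORFs did. An unadjusted p below 0.05 (limma) was seen for 0 of the 24, against 3 of the 2257 ORFs.

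**Figure D5:**
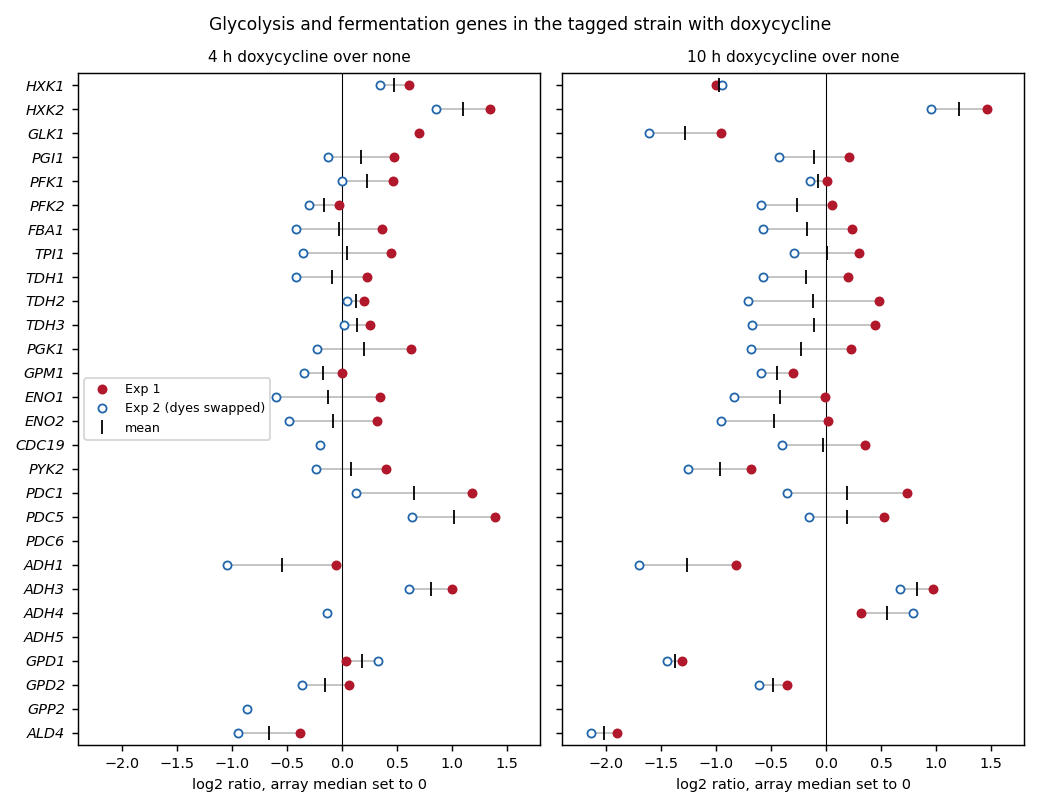
Log2 ratio in the tagged strain with 4 h (left) and 10 h (right) of doxycycline over none, with each array's median set to 0. Of the 28 genes listed, 22 had values on both arrays at 4 h and 25 at 10 h, and PDC6 and ADH5 had none. Red points are Exp 1, open blue points Exp 2 and black ticks the mean. HXK2 lies to the right at both times, while ALD4 and GPD1 lie at -2.02 and -1.38 after 10 h.

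Beyond these enzymes, 26 further genes of the pathway and its regulation were listed, among them regulators of phosphofructokinase, the activators GCR1, GCR2, TYE7 and RAP1, and genes of glycerol, acetate and pyruvate use. None passed in the deletion (0 of 19 tested), over the own promoter (0 of 18) or without over with doxycycline (0 of 18). In each, 0 had an unadjusted p below 0.05 (limma), against 26 of 2538, 113 of 2435 and 233 of 2480 ORFs in that order. The furthest from 0 in the deletion were PFK26 (6-phosphofructo-2-kinase, -1.65 ± 0.10), GPP1 (the main glycerol-3-phosphatase, -0.78 ± 0.47), FBP26 (fructose-2,6-bisphosphatase, -0.68 ± 0.43) and GCR1 (-0.41 ± 0.30). PFK26 and GPP1 lie on chromosome IX. Over the own promoter they were GPP1 (-1.04 ± 0.23), ALD3 (a stress-induced aldehyde dehydrogenase, 0.78 ± 0.02), FBP26 (-0.76 ± 0.15) and TYE7 (0.69 ± 0.04). GPP1 and its close relative GPP2 thus stood on opposite sides of 0 there. Without over with doxycycline they were PGM2 (phosphoglucomutase, 1.48 ± 0.15), GUT1 (glycerol kinase, -1.31 ± 0.14), GPP1 (-1.26 ± 0.42) and FBP26 (-0.91 ± 0.26). After 10 h with the drug in the tagged strain 6 of 19 tested genes passed as lower and 0 as higher, against 106 lower and 37 higher of 2246 ORFs. They were ALD3 (-3.01 ± 0.11), GUT1 (-1.80 ± 0.27), PGM2 (-1.78 ± 0.19), ALD2 (-1.66 ± 0.62), PFK26 (-1.61 ± 0.65) and EMI2 (a glucokinase paralogue, -1.40 ± 0.26), with limma adjusted p from 1.54e-04 to 0.0275. These 6 were named after their values were seen.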

How the data were processed

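The deposited values were log2 ratios that the authors had already normalised. The numerator and dye of each array are given per the labels, while the authors' normalisation method and software stand in no source used here. The dyes were Cy5 and Cy3, coupled indirectly to cDNA, per the labels' protocols. Each array was centred on its median (deposited medians from -0.05 to 0.09), and a comparison's value is the mean of its 2 arrays; the tagged strain over wild type used its first column. Intensities were not used, so signal over background is unknown. ORFs were named from RefSeq assembly R64, where 5675 of 6174 matched, including all 30. No coordinates or sequences are given.

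Genes were tested with limma 3.58.1 (lmFit and eBayes, R 4.3.3) across all ORFs, using the 3 control comparisons for the residual (the other 2 where a control was tested), at least 2 control values (1 where a control was tested) and Benjamini-Hochberg adjustment over all ORFs tested. The test takes control ratios to have no true change. The Exp number marks the dye orientation, per the labels. Differences between Exp 1 and Exp 2 correlated between comparisons with r from 0.562 to 0.685, so the number pairs arrays, and it was used as a block in the fit that treats arrays as replicates. Alternatives covered centring, single arrays, the tagged columns, the residual, a robust fit and fold limits. The members and lists were chosen with earlier results of these data known. All 30 members were named, with HCM1 and the 4 other pathway genes furthest from 0 in each of the 3 comparisons that altered HCM1.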

Additional observations from a re-analysis of the deposited data

Results flagged for a closer look

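Within the tagged strain, 2 enzyme genes had both arrays above 0 after 4 h of doxycycline and both below 0 after 10 h. The difference between the times was not tested. The share of all ORFs that changed side in this way is not given here, so the count has no background. HXK1 went from 0.47 to -0.98, a difference of -1.45. GPD1 went from 0.18 to -1.38, a difference of -1.56.

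Between the strains, 6 genes had both arrays on one side of 0 after 10 h of doxycycline over none in the tet strain and both on the other side in the tagged strain. These differences were not tested either, and the share of all ORFs that differed in this way is likewise not given. In the tet strain doxycycline also turns HCM1 down, so drug and HCM1 cannot be told apart there. GPD1 was at 0.38 in the tet and -1.38 in the tagged strain, a difference of -1.75. GPD2 was at 0.60 and -0.48 (-1.08), GPM1 at 0.68 and -0.45 (-1.13) and ENO1 at 0.15 and -0.42 (-0.57). ENO1 counts among the 6 only through -0.0084 on Exp 1 of the tagged strain, a value close to 0. The near-identical ENO2 was at 0.0139 on that array and is not counted, so ENO1 is no clear case. ADH3 (-0.26 and 0.82, a difference of 1.08) and ADH4 (-0.78 and 0.55, a difference of 1.33) differed the other way.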

How the results depend on the processing

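In the deletion the median of the enzyme genes was 0.0908 on Exp 1 alone and -0.0596 on Exp 2 alone, where ADH2 and ALD6 also have a value; over the 28 genes with both arrays the Exp 2 median was -0.11. In the tagged strain over wild type it was -0.29 uncentred, -0.00345 with both columns averaged, -0.59 with the dye effect removed, -0.47 over genes with all values and -0.13 without the 10 genes that share a value in the deletion, an alternative chosen after seeing the data. Read from 1 array alone, the genes past 2-fold numbered 0 to 2 over the own promoter, 1 to 2 in the tet strain without over with doxycycline, 1 to 4 after 4 h and 4 to 5 after 10 h with the drug in the tagged strain. At 1.5-fold on both arrays they numbered 2 in the tet strain without over with doxycycline, 9 on the tagged array, 3 after 4 h and 8 after 10 h. The 9 on the tagged array include the 8 genes that shared 1 ratio there, between -0.592 and -0.585, just past that limit. At 2-fold of the mean they numbered 2 after 4 h and 5 after 10 h. The shares of all ORFs at these limits are not given here, so these counts have no background. Genes that passed limma after 10 h numbered 1 uncentred, 1 without the tagged array in the residual, 5 with a robust fit and 3 to 5 from 1 array alone. With each array as a replicate and no block, 1 gene passed over the own promoter, 3 in the tet strain without over with doxycycline, 3 after 4 h and 9 after 10 h. With the replicate block these counts were 8, 12, 6 and 11, and 1 in the deletion. Both fits count 2 arrays of 1 RNA pair as independent. The shares of all ORFs that passed them are not given, so these counts have no background either. The causes were not tested. Signal over background was not used here, so its limit on weak spots is unknown.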
